A study of Homo sapiens with 4 samples.

Results

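The antisense long noncoding RNA (lncRNA) genes described here are those of GENCODE v44 biotype lncRNA whose symbol ends in -AS and a number, with counts that sum to 100 or more over the 4 libraries. They number 121 of the 63677 genes in the counts table, and of 1759 genes with such a symbol at any count. OIP5-AS1 and EPB41L4A-AS1 were left out of the set by its definition. The count sum chose the members, so their abundance is a description and not a result. Just inside the minimum lay ZBED5-AS1 with 102 counts and AGAP2-AS1 with 103, and just outside it ZNF436-AS1 with 99 and HOXB-AS4 with 98. Their log2 ratios of IP to Input in replicates 1 and 2 were -1.41 and -0.99 (ZBED5-AS1), -0.97 and -0.09 (AGAP2-AS1), -0.52 and -0.52 (ZNF436-AS1), and -0.73 and -0.12 (HOXB-AS4).

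The libraries came from a native RNA immunoprecipitation (RIP-seq) of ORC1, a subunit of the complex that marks replication origins. The nuclei were those of HCT116, an established line from a human colorectal carcinoma. Both groups were taken from cells transfected for 48 h with pcDNA3.1-ORC1-3xFLAG, so every library, Input included, carries the overexpressed tagged protein. The IP group (n = 2) is RNA recovered with the FLAG antibody M2, and the Input group (n = 2) is nuclear RNA taken without antibody. Replicate numbers 1 and 2 tie each IP to its own Input, and no library of a control antibody or of untransfected cells was analysed here. The authors describe the FLAG RIP as duplicate experiments and report that experiments were repeated independently. No source states that these 2 replicates came from separate cultures, so the p-values measure the spread between these libraries, which may be technical.

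An antisense lncRNA is transcribed from the strand opposite to a gene, usually a protein-coding one, and takes that gene's symbol with the suffix -AS. Its start may lie beside the start of the sense gene, where both share a promoter region, or it may lie at the far end or inside an intron of the sense gene. Many such RNAs are spliced, of low abundance and kept in the nucleus, and some of them act on the chromatin or the transcript of their own locus. ORC1 binds chromatin at replication origins, which often lie at transcription starts, and its disordered region binds RNA.

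IP replicate 1 held 27483148 counts and IP replicate 2 held 20280445, while the paired Inputs held 14677002 and 9213877. Of the markers of HCT116 and colorectal epithelium that were checked, EPCAM, KRT8, KRT18, CDH1 and CDX2 were present in all 4 libraries, whereas CDX1 had 0 counts throughout and VIL1 had 0 to 5. Of 6 markers of other cell types, PTPRC, COL3A1, PECAM1 and ALB had 0 to 4 counts per library, and COL1A1 and DES were counted in every library (126 to 470 and 35 to 90 counts). The 6 summed to 25.5 and 32.1 scaled CPM in the IP against 10.9 and 13.9 in the Inputs, and the 7 epithelial markers to 3055 and 2595 against 1573 and 1607. The part of either list in the results was not tested. The 121 genes took 0.0326% (replicate 1) and 0.0463% (replicate 2) of all IP reads, against 0.073% and 0.109% of Input reads. A member had a median of 164 counts in all, and 39, 42, 47 and 44 counts in IP 1, IP 2, Input 1 and Input 2. A count of 39 carries an exact Poisson 95% interval of 27.7 to 53.3 for counting error alone, so a single replicate ratio of a median member is imprecise. Only 19 members reached 500 counts and 4 reached 1000. All 121 passed the filter on low counts, 114 of them through all 4 libraries and 7 through both Inputs and 1 IP library.

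Antisense lncRNAs were mostly lower in the IP than in the Input. Ratios are log2 IP over Input of counts relative to the library total (CPM) after TMM scaling, called scaled CPM, with a pseudocount of 0.5. The median ratio was -0.45 in replicate 1 and -0.49 in replicate 2. The ratio lay below 0 in both replicates for 81 of the 121 genes (66.9%), above 0 in both for 12, and on different sides for 28. Of all 12457 genes with 100 counts or more, 40.3% lay below 0 in both replicates and 46.4% above. The members ranged from -2.34 to 1.54 in replicate 1 and from -3.93 to 1.30 in replicate 2, with 16 genes under -1 in both and none of the 121 over 1 in both. Across the 121 genes the ratios of the replicates correlated at Pearson r = 0.631 and Spearman rho = 0.600, a description over genes that share the same 4 libraries. In bulk nuclei, the level of a gene in a library does not separate the number of cells that express it from its RNA per nucleus. Whether this limit also bears on the ratios above was not tested.

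**Figure D1:**
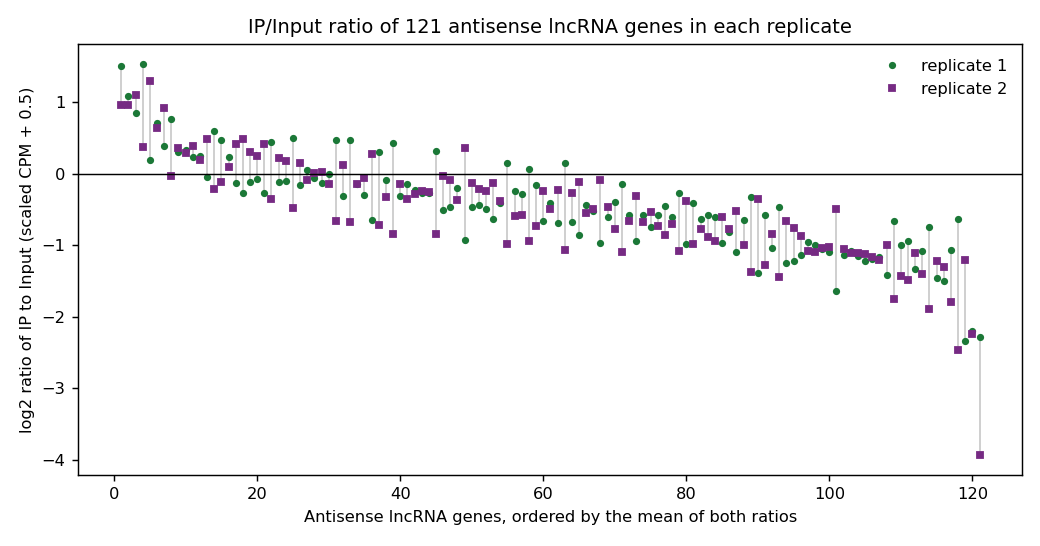
The log2 ratio of IP to Input (scaled CPM, pseudocount 0.5) of each of the 121 antisense lncRNA genes in replicate 1 (circles) and replicate 2 (squares), ordered by the mean of both. Most pairs of points lie below 0, and 16 genes lie under -1 in both replicates.

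The edgeR quasi-likelihood test over all 14645 genes tested called 1 antisense lncRNA enriched and 8 depleted (Benjamini-Hochberg adjusted p under 0.05 and a log2 fold change past 1 in size). This main fit did not use the pairing of each IP with its Input. Calls below are from it unless another fit is named. Enriched genes made up 0.826% of the members against a background of 10.5% of all genes tested, and depleted genes 6.61% against 8.30%. The median total count was 164 in the members and 1817 in all genes with 100 counts or more. The part of this difference in the shares of calls was not tested. The median log2 fold change of the members was -0.61, beside 0.01 over all genes tested. At an unadjusted p under 0.05, 30 members (24.8%) lay below 0 and 2 (1.65%) above, beside 17.8% and 21% of all genes tested. With the replicate number as a block, 4 members were enriched and 33 depleted (27.3%), against 13.4% of all genes tested in each direction. The calls also rested on single libraries: leaving out IP replicate 1 gave 0 enriched and 2 depleted members (8.04% and 5.27% of all genes). Depleted members numbered 14 when IP replicate 2 was dropped (6.65% of all genes), 22 when Input replicate 1 was dropped (9.50%) and 13 when Input replicate 2 was dropped (11.8%), where 3 members were also enriched (9.23%). Scaling by library size alone gave 0 enriched (2.59% of all genes) and 33 depleted members (22.2%), and it moved the median of all genes by -0.60. Depleted members numbered 16 with no count filter (5.05% of all genes) and 13 at a filter of 1 CPM in 2 libraries (9.58%), beside 7 with DESeq2 (7.66%) and 8 with limma voom (7.74%).

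The enriched gene was VPS9D1-AS1 (ENSG00000261373, chromosome 16, 89711856 to 89718165, plus strand, GRCh38), a lncRNA known from colorectal cancer as a target of MYC. It measured 23.4 and 13.7 scaled CPM in IP 1 and 2, and 7.90 and 6.76 in Input 1 and 2. Both IP libraries lay above both Inputs, and the log2 fold change was 1.34 ± 0.32 (SE, n = 2 per group, adjusted p = 0.0279). It kept its call under the replicate block (1.31) and lost it without IP replicate 1 (0.94, adjusted p = 0.140) and with scaling by library size alone (0.72, adjusted p = 0.106). The gene lies wholly inside VPS9D1, which encodes a protein with a VPS9 domain, on the other strand, and 518 of its 1753 exonic bases are shared with VPS9D1 exons. VPS9D1 itself measured 9.99, 10.1, 4.70 and 6.85 scaled CPM in the same order, and its log2 fold change of 0.80 ± 0.30 was not called (adjusted p = 0.0912). The libraries were prepared with a stranded kit, but whether the counting used the strand is not given in the sources used here. Counts from the shared bases can therefore not be assigned to one of the genes.

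The stretch below shows what such an overlap looks like: it holds the first 90 bases of a segment of 154 bases where an exon of VPS9D1-AS1 lies across a coding exon of VPS9D1, read on the strand of VPS9D1-AS1 from the GRCh38 reference at chr16:89716471-89716560. Read on the other strand, the same bases belong to VPS9D1.
VPS9D1-AS1: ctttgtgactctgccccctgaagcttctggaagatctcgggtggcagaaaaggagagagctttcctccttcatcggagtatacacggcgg

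Among the genes next in size above 0, SH3BP5-AS1 measured 3.12 and 6.49 scaled CPM in the IP against 1.20 and 3.08 in the Inputs. Its groups did not overlap, but only narrowly (3.12 against 3.08), and the fold change of 1.19 ± 0.59 did not pass (adjusted p = 0.182). SLC9A3-AS1, inside the gene of the epithelial sodium-hydrogen exchanger NHE3, measured 4.03, 7.22, 2.00 and 3.08 scaled CPM in IP 1, IP 2, Input 1 and Input 2, a log2 fold change of 1.15 ± 0.44 (adjusted p = 0.101). C1RL-AS1, which starts beside the C1r-like protease gene, measured 7.97, 10.1, 2.41 and 7.62 scaled CPM (0.87 ± 0.51, adjusted p = 0.255). In the fit with the replicate block these 3 were called (adjusted p of 0.00188, 0.00176 and 0.0151). UPK1A-AS1, inside the gene of the bladder protein uroplakin 1A, had a log2 fold change of 0.89 ± 0.53 and was called in neither fit.

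HMGA2-AS1 had the lowest log2 fold change of the 121 genes in the fit on all 4 libraries. It lies inside HMGA2, the gene of an AT-hook chromatin protein that is abundant in embryonic and tumour cells, with 93.6% of its exonic bases in HMGA2 introns. It measured 3.17 and 5.80 scaled CPM in the IP against 17.3 and 95.8 in the Inputs (66, 102, 302 and 1119 counts). Every IP value lay below every Input value, but Input replicate 2 stood 5.54 times above Input replicate 1. The log2 fold change was -3.66 ± 0.79 (adjusted p = 0.0211), -2.10 without Input replicate 2 (where KRT10-AS1 had -2.24), and -3.22 without IP replicate 1, where the call was lost (adjusted p = 0.548). HMGA2 itself measured 94.4 and 85.0 scaled CPM in the IP against 143 and 188 in the Inputs (log2 fold change -0.88 ± 0.25, adjusted p = 0.0440), short of the size needed for a call.

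THUMPD3-AS1 spans THUMPD3, which encodes a tRNA methyltransferase. It measured 1.68 and 4.32 scaled CPM in the IP libraries against 9.45 and 22.2 in the Inputs, a log2 fold change of -2.40 ± 0.56 (adjusted p = 0.0265). KRT10-AS1, head to head with the epidermal keratin gene KRT10, measured 2.21 and 3.98 against 13.2 and 9.84 (-1.90 ± 0.37, adjusted p = 0.0174). These were the 2 genes still called depleted when IP replicate 1 was left out. KTN1-AS1, head to head with the gene of the endoplasmic reticulum protein kinectin, measured 2.16 and 2.62 in the IP and 4.81 and 7.87 in the Inputs (-1.40 ± 0.39, adjusted p = 0.0434).

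The other 4 depleted genes lay between -1.35 and -1.20, and in each of them both IP libraries were below both Inputs. DHRS4-AS1, known to silence the dehydrogenase genes of its cluster through chromatin, measured 2.06 and 1.93 scaled CPM in the IP and 5.44 and 4.79 in the Inputs (-1.35 ± 0.37, adjusted p = 0.0402). Its locus holds closely similar DHRS4 copies, so its partner's counts are uncertain. NR2F1-AS1, divergent from the gene of the nuclear receptor COUP-TF1, measured 5.76 and 6.26 against 13.8 and 14.6, the tightest of the depleted genes (-1.23 ± 0.25, adjusted p = 0.0177). C10orf95-AS1 had -1.27 ± 0.27 (adjusted p = 0.0200) and CKMT2-AS1 -1.20 ± 0.35 (adjusted p = 0.0495), the latter lost under upper-quartile scaling, DESeq2 and limma voom. DESeq2 also lost DHRS4-AS1 and KTN1-AS1, and limma voom KTN1-AS1. Beside the loss without IP replicate 1, KTN1-AS1 and CKMT2-AS1 lost their calls without IP replicate 2 (adjusted p = 0.0537 and 0.0583) and without Input replicate 2 (0.118 and 0.0810). DHRS4-AS1 lost its call without IP replicate 2 (0.160) and without Input replicate 1 (0.141).

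The 3 lowest members with no call in the main fit were IGF2BP2-AS1, RAB33B-AS1 and PITX1-AS1. With no count filter all 3 were called depleted (adjusted p = 0.000706, 0.0142 and 0.0329), and DESeq2 called IGF2BP2-AS1 (-2.75, adjusted p = 0.0378). These 3 genes were among the 7 that passed the filter on low counts through both Inputs and 1 IP library. Entry to the fit thus rested more on the Inputs, the group where they were higher, and their low fold changes are descriptions. IGF2BP2-AS1, whose exonic bases lie wholly within introns of the gene of the mRNA-binding protein IGF2BP2, measured 0.192 and 0.910 scaled CPM in the IP and 0.573 and 7.27 in the Inputs (-2.82 ± 1.20, adjusted p = 0.132). Its log2 fold change was -0.22 without Input replicate 2 and -4.21 without IP replicate 2 (adjusted p = 0.00112). PITX1-AS1, beside the gene of a homeodomain factor of the hindlimb, measured 0.288, 1.31, 0.745 and 5.56 (-1.97 ± 1.05, adjusted p = 0.213), and its value was -0.06 without Input replicate 2 and -3.34 without IP replicate 2 (adjusted p = 0.0177). In both genes the replicate 2 libraries were higher than the replicate 1 libraries within each group, and the groups overlapped. RAB33B-AS1, head to head with the gene of a small GTPase of the Golgi, had -2.01 ± 0.79 (adjusted p = 0.107), with -0.94 when Input replicate 2 was left out and -2.83 when IP replicate 2 was (adjusted p = 0.0202). All 3 were called depleted without Input replicate 1 and with the replicate block.

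A difference of that kind between the replicates was common. Scaled CPM was higher in replicate 2 than in replicate 1 in both groups for 75 of the 121 genes (62.0%) and lower in both for 22 (18.2%). Of all genes with 100 counts or more, 31.0% were higher and 43.0% lower in this way. The part of this difference between replicates in the fold changes was not tested beyond the fit with the replicate block given above.

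**Figure D2:**
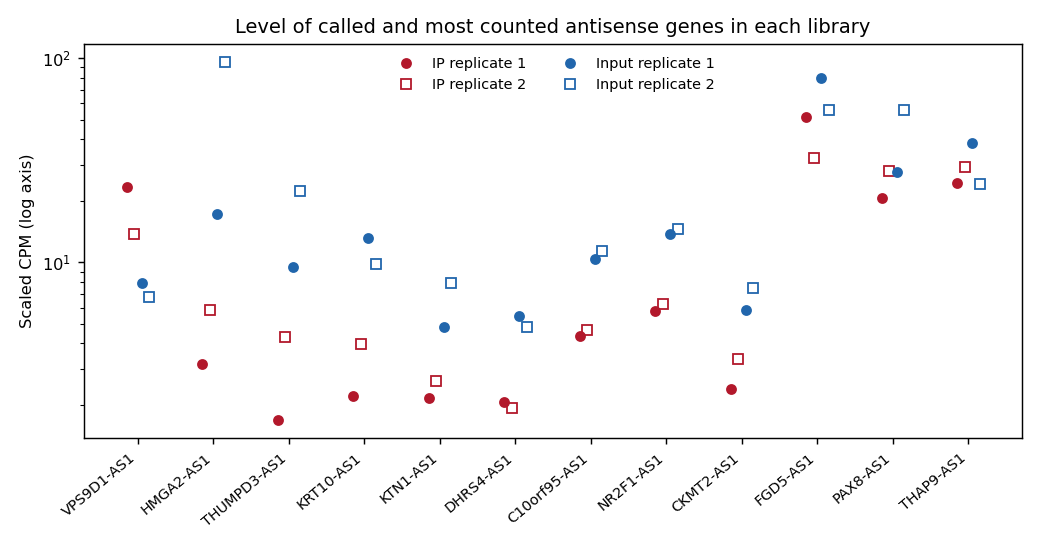
Scaled CPM on a log axis in IP replicates 1 and 2 (red) and Input replicates 1 and 2 (blue) for the 9 called antisense genes and the most counted members without a call. VPS9D1-AS1 has both IP points above both Input points, the 8 depleted genes have the reverse, and HMGA2-AS1 shows a wide gap between its Inputs (17.3 and 95.8).

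The most counted member was FGD5-AS1 with 3683 counts, named for FGD5, a guanine nucleotide exchange factor gene of endothelium that itself had under 100 counts. FGD5-AS1 measured 51.5 and 32.4 scaled CPM in the IP against 79.7 and 55.5 in the Inputs. The IP values were all lower, and the log2 fold change was -0.69 ± 0.31 (adjusted p = 0.148), or -1.08 without Input replicate 2. PAX8-AS1, which overlaps the gene of a thyroid and kidney transcription factor, measured 20.6 and 28.1 against 27.6 and 55.5. Its groups overlapped (-0.77 ± 0.36, adjusted p = 0.166), though each IP lay below its own Input, and its value was -1.15 without Input replicate 1. With the replicate block, FGD5-AS1 and PAX8-AS1 both had -0.70 (adjusted p = 0.00127 and 0.00282), short of the size needed for a call. Both were called depleted with scaling by library size alone (-1.30 and -1.37, adjusted p = 0.0127 and 0.0447), where 22.2% of all genes were depleted. THAP9-AS1, which starts 276 bases from the start of the transposase-derived gene THAP9, measured 24.4 and 29.3 against 38.3 and 24.1, also with overlap (-0.22 ± 0.28, adjusted p = 0.612). With the block it had -0.20 (adjusted p = 0.467).

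A further list held 16 antisense RNAs that have a literature or a partner known in replication or in the nucleus. Of these 8 were members. VPS9D1-AS1 alone among them was called, and FGD5-AS1 was described above. TMPO-AS1, head to head with the gene of the nuclear lamina protein LAP2, measured 0.864 and 0.683 scaled CPM in the IP and 2.92 and 2.05 in the Inputs, 18 and 12 against 51 and 24 counts (-1.68 ± 0.54, adjusted p = 0.0628), and it was called with the replicate block (adjusted p = 0.00135) and without Input replicate 2 (0.0308). PSMA3-AS1, from the locus of a proteasome subunit, had -0.83 ± 0.30 (adjusted p = 0.0870). With the replicate block it also had -0.83 (adjusted p = 0.00214), short of the size needed for a call. In that fit TTN-AS1, MAPKAPK5-AS1, MCM3AP-AS1 and FOXD2-AS1 had adjusted p of 0.0642 to 0.789. TTN-AS1, which shares 54.9% of its exonic bases with titin exons, had -0.74 ± 0.86 (adjusted p = 0.566), and MAPKAPK5-AS1 had -0.48 ± 0.36 (adjusted p = 0.368). MCM3AP-AS1, opposite the gene of the mRNA export protein GANP, had -0.24 ± 0.45 (adjusted p = 0.729), and FOXD2-AS1 had 0.13 ± 0.43 (adjusted p = 0.851), which turned negative with scaling by library size alone (-0.45) and by the upper quartile (-0.02). Among the others, SBF2-AS1 had 89 counts, ZEB1-AS1 69, CDKN2B-AS1 31, GATA6-AS1 5 and NNT-AS1 1, too few for the set. PCNA-AS1 and TP73-AS1 were not matched in the table.

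Other lncRNA genes with 100 counts or more also had median ratios below 0. The median of the mean ratio was -0.45 in the antisense genes, -0.53 in 41 divergent transcripts (symbol ending in -DT), -0.57 in 58 LINC genes and -0.62 in all 326 lncRNA genes that are not antisense. In the last group 2 of 326 genes were called enriched and 42 depleted. The divergent transcripts had 0 enriched and 1 depleted, and the LINC genes 0 and 4. Of all genes tested, 10.5% were enriched and 8.3% depleted, and of the antisense genes 0.826% and 6.61%. Protein-coding genes had a median ratio of 0.09 (11505 genes). These medians are descriptions, and no difference between the classes was tested. Median exonic length was 4685 bases in antisense genes and 5627 in protein-coding genes, and the median total count 164 and 2046.

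The sense partner of an antisense gene is the gene whose symbol it carries. A partner was found for 120 of the 121 genes, the exception being HOXB-AS3, and in 24 cases the partner had under 100 counts. That left 96 pairs with 95 partners, since BCAN-AS1 and BCAN-AS2 share BCAN. Per kb of exon, the Input level of the antisense gene was below that of its partner in most pairs (medians of 0.760 and 4.64 scaled CPM per kb), and above it in 16. The partners had a median mean ratio of 0.13, and 11 of the 95 were called enriched and 4 depleted. Of all genes tested, 10.5% were enriched and 8.3% depleted.

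Within pairs, the antisense ratio was lower than the sense ratio in both replicates in 62 of 96 pairs (64.6%), higher in both in 19 and mixed in 15. The median difference, antisense minus sense on the log2 scale, was -0.72 in replicate 1 and -0.64 in replicate 2. Across pairs, the log2 fold change of an antisense gene and that of its partner showed little relation (Pearson r = 0.088, Spearman rho = 0.0855, n = 96 pairs, with all values from the same 4 libraries). In the 24 pairs that share no exonic base in GENCODE v44, the antisense ratio was lower in both replicates in 18 and higher in both in 4. Their median difference was -0.80. Among pairs whose antisense gene had 300 counts or more, the antisense ratio was lower in both replicates in 14 of 26 and higher in both in 10. The median difference there was -0.42.

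**Figure D3:**
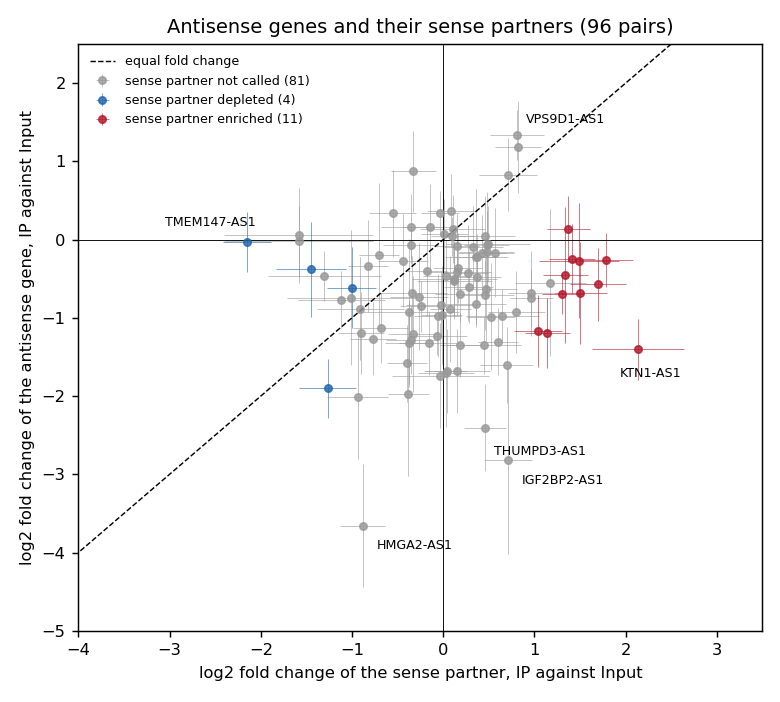
Log2 fold change of IP against Input of each antisense gene (vertical) against that of its sense partner (horizontal) in 96 pairs, with bars of 1 SE; colours give the call of the partner and the dashed line marks equal values. All 11 pairs with an enriched partner lie below the dashed line, and TMEM147-AS1 lies above it.

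The pairs with an enriched partner were read as a group chosen by the partner's value, so the partner's side of the difference is fixed by that choice. These partners are WDFY3, MCM3AP, NOP14, CCDC18, DICER1, URB1, SRRM2, ZNF407, STX18, ZBTB11 and KTN1, with log2 fold changes of 1.04 to 2.13. Their antisense genes had a median log2 fold change of -0.57, from -1.40 to 0.14, close to the median of all members (-0.61). SRRM2, the scaffold gene of nuclear speckles, measured 2620 and 3200 scaled CPM in the IP and 980 and 1080 in the Inputs. SRRM2-AS1, whose start lies 26 bases from that of SRRM2, measured 1.20 and 1.36 in the IP and 1.03 and 3.17 in the Inputs, with overlapping groups (-0.69 ± 0.66, adjusted p = 0.483). URB1, a ribosome biogenesis gene, measured 410 and 462 against 104 and 166, and URB1-AS1, which starts 83 bases away, measured 1.49 and 2.33 against 3.09 and 2.57 (-0.57 ± 0.47, adjusted p = 0.410). SRRM2-AS1 and URB1-AS1 were chosen for naming after their values were seen.

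KTN1 and KTN1-AS1 formed the pair with the most negative difference. KTN1 measured 786 and 566 scaled CPM in the IP and 229 and 78.7 in the Inputs (2.13 ± 0.51, adjusted p = 0.0272), whereas KTN1-AS1 was called depleted on all 4 libraries. The difference between their ratios was -2.77 in replicate 1 and -4.26 in replicate 2. THUMPD3-AS1 followed with -2.57 and -2.79, its partner not being called (0.46 ± 0.23, adjusted p = 0.195), and then IGF2BP2-AS1 with -1.26 and -3.27, a gene with 0.192 scaled CPM in IP replicate 1, under the filter cutoff of 0.572 CPM.

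In the opposite direction, TMEM147-AS1 and TMEM147, the gene of an endoplasmic reticulum membrane protein, gave the most positive difference (2.48 and 1.65). TMEM147 was depleted, with 7.88 and 9.67 scaled CPM in the IP and 44.7 and 33.4 in the Inputs (-2.16 ± 0.26, adjusted p = 0.0105). TMEM147-AS1 measured 8.02 and 13.2 in the IP and 7.73 and 14.1 in the Inputs, and these values overlap (-0.03 ± 0.38, adjusted p = 0.961). The starts of these genes lie 429 bases apart. BCAN-AS1 followed with differences of 1.14 and 1.47 against BCAN, the gene of the brain proteoglycan brevican, and then C1RL-AS1 with 1.95 and 0.60. Of the 4 depleted partners, KRT10 (-1.27 ± 0.32) was the one whose antisense gene was depleted as well.

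The pairs were sorted by how the genes lie in GENCODE v44. Starts faced each other with an overlap in 49 pairs and without one in 9, and ends overlapped in 29. In 18 pairs the antisense gene lay inside its partner and in 13 it spanned the partner. FAM131B-AS2 lay on the same strand as FAM131B, and 1 further gene lay tail to tail without overlap. The median log2 fold change was -1.19 in spanning genes, -0.70 in overlapping head-to-head genes, -0.58 inside the partner, -0.41 head to head apart and -0.27 in overlapping tail-to-tail genes. Of the 8 depleted genes, 4 spanned their partner (THUMPD3-AS1, DHRS4-AS1, C10orf95-AS1, CKMT2-AS1), 3 overlapped it head to head (KRT10-AS1, KTN1-AS1, NR2F1-AS1) and HMGA2-AS1 lay inside it. Those classes held 13, 49 and 18 genes, and 8.3% of all genes tested were depleted. The position classes were not tested against each other.

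**Figure D4:**
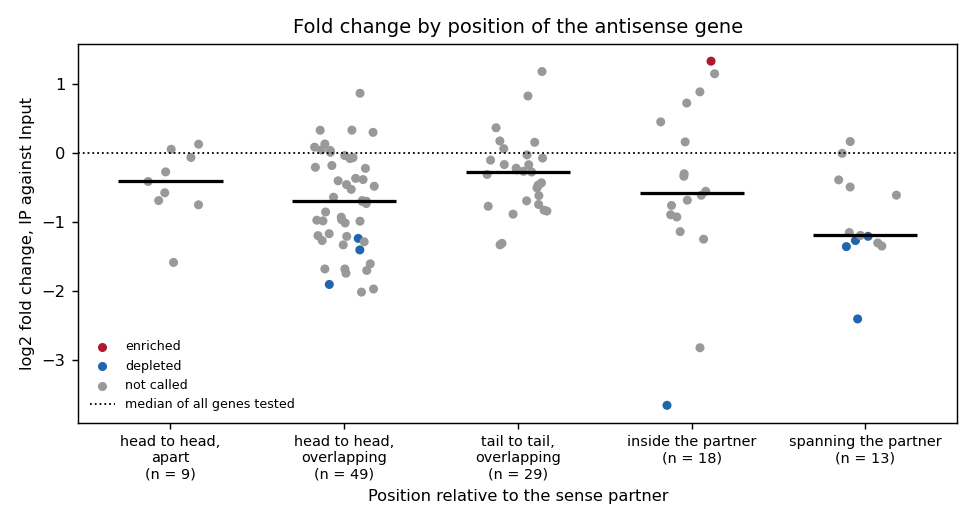
Log2 fold change of IP against Input of each antisense gene by its position relative to the sense partner, with the class median as a bar; the dotted line is the median of all genes tested. The 13 spanning genes have the lowest median (-1.19) and the 29 overlapping tail-to-tail genes the highest (-0.27); the classes of 1 gene are not drawn.

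How much of an antisense gene lies in exons of the opposite strand bears on what its counts can mean. None of the exonic bases lay in such exons in 24 genes (median log2 fold change -0.66), up to 25% in 79 (-0.61) and over 25% in 18 (-0.13). All 8 depleted genes were among the 79, the largest of these classes, and 8.3% of all genes tested were depleted. PRR11-AS1 (321 bases) lay wholly within exons of PRR11, a cell cycle gene, and was counted with 103, 42, 133 and 48 reads in IP 1, IP 2, Input 1 and Input 2. Over the whole annotation, 17.0% of 581 genes wholly inside opposite-strand exons had a count, as did 31.5% of 871 genes wholly inside same-strand exons and 50.7% of 35490 genes in no other exon. These shares do not settle whether the counting used the strand.

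Fold change and exonic length went in different directions among the antisense genes and among all genes. Exonic length counts the exonic bases of all GENCODE v44 transcripts of a gene together, so it is not the length of 1 RNA. In the members its median was 4685 bases, beside 2894 for the longest transcript. The log2 fold change of the members had a Spearman rho of -0.227 with exonic length (n = 121 genes), whereas over 14265 tested genes it had rho = 0.300. The longest members (41 genes, 6650 to 33645 bases) had a median of -0.84, while all tested genes of that length range had a median of 0.33. Of the 8 depleted genes, 5 were among the longest 41 members, 2 among the middle 40 and 1 among the shortest 40. Of all genes tested, 8.3% were depleted. The shortest 40 members (321 to 3219 bases) had a median of -0.47, beside -0.33 for all tested genes of that range, and the 40 between had -0.46 beside -0.01. The 7 genes of 1 exon had a median of -0.18 and those of 2 or more exons -0.61. These values describe the genes and no difference was tested.

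**Figure D5:**
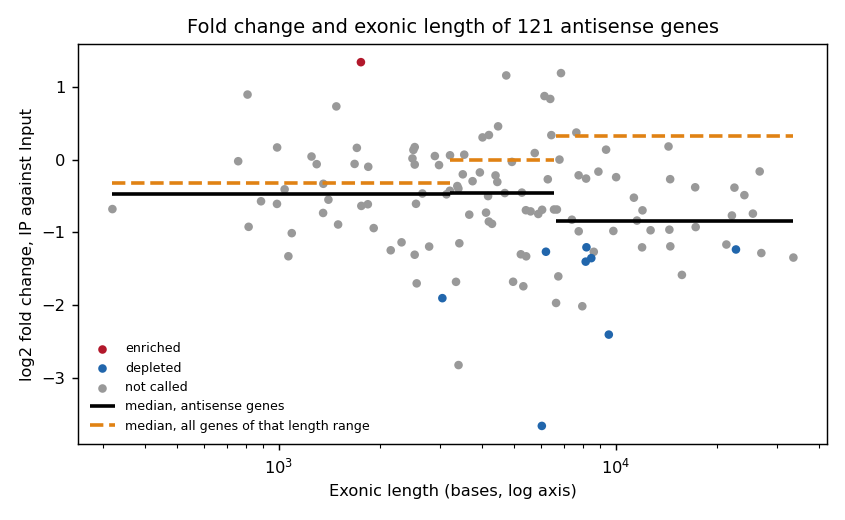
Log2 fold change of IP against Input of the 121 antisense genes against exonic length (bases, log axis), with the median of the members in 3 classes of length (black) and of all tested genes in the same ranges (dashed). The lines lie close together among short genes (-0.47 and -0.33) and apart among long ones (-0.84 and 0.33).

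Tandem GAA repeats are a feature looked for in RNAs that ORC1 binds, and GAAGAAGAA was therefore searched in the longest transcript of each gene, on the transcript strand. It was found in 9 of the 121 antisense genes (7.44%, exact Clopper-Pearson 95% interval 3.46 to 13.7), beside 14.5% of genes with 100 counts or more. Within a common window of transcript length (1758 to 4617 bases) it was found in 9.84% of 61 members and 10.5% of 5969 genes, and in any transcript of the gene in 15.7% of members and 17.7% of 12239 genes. The reverse complement TTCTTCTTC was in 6 members. Of the 95 distinct partners, 18 held GAAGAAGAA in the longest transcript, and CCDC18-AS1 with CCDC18 was the 1 pair in which both did. None of the 9 called members held the motif in the longest transcript, and NR2F1-AS1 and KTN1-AS1 held it in another transcript. The 9 members with the motif in the longest transcript had log2 fold changes of -1.58 to 0.87 (median -0.22, beside -0.61 without it).

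The repeats of 4 members are printed with 21 bases on each side, the GAA units in capitals, as read from GENCODE v44 transcripts: THAP9-AS1 because it has the most counts of the 9, C1RL-AS1 and ZNF561-AS1 for the highest and lowest log2 fold change (0.87 and -1.58), and CCDC18-AS1 because its partner holds the repeat too. They lie at chr4:82894586-82894636 (minus strand), chr12:7118656-7118933 (plus strand, across an exon junction), chr19:9628990-9629040 (plus strand) and chr1:93339004-93339057 (minus strand) of GRCh38.
THAP9-AS1: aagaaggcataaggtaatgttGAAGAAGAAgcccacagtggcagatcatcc
C1RL-AS1: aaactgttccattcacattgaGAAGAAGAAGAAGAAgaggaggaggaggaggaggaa
ZNF561-AS1: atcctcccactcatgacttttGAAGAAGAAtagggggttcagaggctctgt
CCDC18-AS1: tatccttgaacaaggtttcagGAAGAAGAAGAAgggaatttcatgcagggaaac

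C1RL-AS1 has the longest run of the 4, 5 units followed by GAG repeats, and CCDC18-AS1 has 4 units. CCDC18-AS1 measured 2.35 and 7.79 scaled CPM in the IP and 2.52 and 9.84 in the Inputs (-0.27 ± 0.74, adjusted p = 0.821), while CCDC18, a coiled-coil protein gene, measured 34.3 and 27.1 against 15.8 and 5.91 and was enriched (1.49 ± 0.44, adjusted p = 0.0491). Of the 9 members with the repeat, 8 lay below 0 and C1RL-AS1 above, the latter without a call.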

How the data were processed

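RNA of 2 ORC1-FLAG immunoprecipitates and 2 nuclear Inputs was sequenced by the authors after ribosomal RNA depletion, with a stranded library kit (TruSeq Stranded Total RNA). The deposited table gives unnormalized read counts by gene. Per the labels, reads were processed with Trimmomatic, STAR and featureCounts on hg19 (GRCh37). The annotation release and the strand setting are not given in the sources used here. Symbols, biotypes, positions and transcripts came from GENCODE v44 on GRCh38, joined by Ensembl gene identifier, and all coordinates are of that build. It differs from the build of the counts, so exon models may differ.

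The counts entered a quasi-likelihood test in edgeR 4.0.16 under R 4.3.3, with TMM (trimmed mean of M values) scaling, filterByExpr and robust dispersion, on all 4 libraries with group as the only term and Benjamini-Hochberg adjustment over all 14645 genes tested. TMM factors were 0.758 and 0.868 (IP) and 1.19 and 1.28 (Input), and the biological coefficient of variation was 0.261. Standard errors are the log2 fold change over the root of the F statistic. Tested on simulated data of 14645 genes with 200 changed by 2 on the log2 scale, edgeR recovered 76.5% with 18 false calls, limma voom 74.5% with 12 and DESeq2 80% with 29. The changed genes were drawn at random from all genes tested, and no replicate effect was simulated. Recovery among genes with counts as low as those of the members was not measured. The labels give an IP and its Input the same replicate number, and deviations from the group means of same-numbered libraries correlated (Pearson r = 0.637), so they were treated as pairs in a fit with a replicate block. Alternatives were RLE, library-size and upper-quartile scaling, no count filter, a filter of 1 CPM in at least 2 libraries, limma voom (limma 3.58.1), DESeq2 1.42.0, the block, each library left out, pseudocounts of 0.1 and 2, minimum count sums of 300 and 1000, partners by position, and pairs without shared exonic bases. Intervals cover counting error only, and reads carry no molecular identifiers.

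The members, lists and named genes were chosen with earlier results of these data known. Named were the called members (at most 8 per direction), the 5 highest and 5 lowest fold changes among members with a mean of 1 scaled CPM or more and the same sign in both replicates, the 4 most counted members, the members of a list of 16, the 3 pairs with the largest and the 3 with the smallest antisense minus sense difference, and the 2 genes on each side of the count minimum. SRRM2-AS1, URB1-AS1, PRR11-AS1 and the genes with printed repeats were added after their values were seen. 1 gene of the list of 16 is not reported here.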

Additional observations from a re-analysis of the deposited data

How the results depend on the processing

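The main calls (1 enriched, 8 depleted) were 0 and 33 with scaling by library size alone, under which the median of all genes moved by -0.602 and 22.2% of all genes were depleted. With the replicate block, which pairs each IP with its Input, they were 4 and 33, with the main 9 calls all kept. Depleted members numbered 16 with no count filter and 13 with at least 1 CPM in 2 libraries. With 1 library left out, enriched members ranged from 0 to 3 and depleted ones from 2 to 22, and the median log2 fold change from -0.744 to -0.379. That median (-0.607) was -1.21 with library size alone, -0.770 with upper-quartile scaling (median of all genes moved by -0.170), -0.566 with DESeq2 and -0.503 with limma voom. The median ratio (-0.452) was -0.933 with library size alone, -0.519 and -0.291 with pseudocounts of 0.1 and 2, -0.694 in the 4 genes with 1000 counts or more, and -0.495 to -0.446 with 1 replicate left out. The median difference within pairs (-0.611) was -0.538 with library size alone, -0.701 and -0.434 with pseudocounts of 0.1 and 2, -0.417 in 26 pairs with 300 counts or more, -0.521 in 3 with 1000 or more, -0.797 in the 24 pairs without shared exonic bases, and -0.716 to -0.639 with 1 replicate left out; the antisense gene was lower in both replicates in 14, 2 and 18 of those 26, 3 and 24 pairs. In the same sets of 26, 3 and 24 pairs, the antisense gene was higher in both replicates in 10, 1 and 4. The share with GAAGAAGAA in any transcript was 15.7%. Among named genes, the direction turned for FOXD2-AS1 (-0.453 with library size, -0.0235 with upper quartile), BCAN-AS1 (-0.543 and -0.128) and TMEM147-AS1 (0.00946 with DESeq2, 0.0124 with limma voom). With 1 library left out it turned for FOXD2-AS1 (-0.0662 to 0.392), BCAN-AS1 (-0.563 to 1.08), TMEM147-AS1 (-0.382 to 0.337), THAP9-AS1 (-0.660 to 0.203), MCM3AP-AS1 (-0.581 to 0.118), TTN-AS1 (-2.21 to 0.142) and AGAP2-AS1 (-1.61 to 0.203). No called member changed direction under these alternatives. The cause of these shifts was not tested. With a median of 39 to 47 counts per member and library, and 2 libraries per group, counting error limits each ratio, and changes smaller than 2 on the log2 scale were not simulated.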
